A study of Homo sapiens with 7 samples.

Results

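The replication checkpoint is the signalling pathway that senses stalled DNA replication forks and holds cells back from mitosis. Single-stranded DNA at a stalled fork recruits the kinase ATR through its partner ATRIP, and TOPBP1 activates it. Claspin (CLSPN) and the TIMELESS-TIPIN complex travel with the fork and pass the signal to the effector kinase CHEK1, whereas CHEK2 is mainly the effector of the related kinase ATM. WEE1 and PKMYT1 place the inhibitory phosphates on cyclin-dependent kinases that these signals protect. Many genes of DNA replication and its surveillance are targets of E2F transcription factors, to which the retinoblastoma protein (Rb) binds when it is not phosphorylated.

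Rb peaks at the 10 genes ATR, ATRIP, TOPBP1, CLSPN, TIMELESS, TIPIN, CHEK1, CHEK2, WEE1 and PKMYT1 were examined, out of 19970 protein-coding genes on chromosomes 1 to 22 and X. The genes were chosen by name, and a peak was assigned to a gene when it touched its promoter, defined as 2000 bp upstream to 500 bp downstream of any annotated transcription start site (TSS), or lay within the gene. The peaks came from CUT&RUN, in which an antibody-directed nuclease cuts out the DNA around a bound protein. It was performed with an Rb antibody in ZR-75-1, a breast cancer cell line that expresses the oestrogen receptor. The parental line gave 2 control libraries, from cells in DMSO, and 2 libraries from cells in 500 nM palbociclib, an inhibitor of the kinases CDK4 and CDK6 that phosphorylate Rb. Every treatment lasted 4 days. RB1 KO cells, in which the gene for Rb was disrupted by CRISPR editing and single cells were sorted to found the line, had 1 Rb library with DMSO and 1 with 500 nM palbociclib. The background was measured in 1 library of parental cells in 500 nM palbociclib, made with IgG2a, an antibody without a target in these cells. An RB1 KO line founded from single cells may differ from the parental cells in more than RB1, and groups of 1 library have no replicate error.

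Each library had its own list of peaks, and all peaks on chromosomes 1 to 22 and X were used. The DMSO lists held 922 and 753 such peaks and the palbociclib lists 8314 and 8171. The RB1 KO lists held 4 with DMSO and 5 with palbociclib, and the IgG2a list held 1724. The files carry no read totals, but the floor of the genome-wide background, which grows with the fragment bases sequenced, could be recovered from the peak values. The lowest background at any listed peak was taken as the floor. For DMSO it was 0.571 and 0.465 fragments, for palbociclib 0.516 and 0.549, for RB1 KO 0.654 and 0.446, and for IgG2a 0.451. The full RB1 KO lists held only 65 and 51 peaks, so their true floor may be lower and their depth cannot be compared this way.

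The E2F motif lay within a promoter peak at several of these genes. The stretches that carry it are shown on the hg38 build, each 5′ to 3′ on the strand of its gene, with the E2F letters in capitals. The searched forms were TTTCCCGC, TTTCGCGC, TTTGCCGC and TTTGGCGC on both strands, so a match can read as its opposite strand.
TOPBP1, chr3:133661930-133661959, minus strand: ccgcgcggttgGCGCGAAAgtcggttcccg
TIMELESS, chr12:56449203-56449232, minus strand: gctgagtccctTTTCCCGCcacccggttta
CHEK1, chr11:125625949-125625978, plus strand: ctcaagttttgGCGGGAAAagcgctgcatt
PKMYT1 at the promoter of PAQR4, chr16:2969245-2969274, minus strand: gccggccagcgTTTCGCGCgccgggctcct
PKMYT1 at its canonical start, chr16:2980448-2980477, minus strand: ggtttggaattTTTGGCGCgagcagctccg

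3 promoters are shown at greater length, from 120 bases upstream of the canonical TSS to 10 bases past it, because they show different arrangements at genes whose peaks are compared below. Capitals mark the E2F forms and 2 further motifs, each searched on both strands. The CCAAT box is bound by the factor NF-Y. The GC box, with the letters GGGCGG, is bound by SP and KLF factors.
CLSPN, chr1:35769969-35770098, minus strand: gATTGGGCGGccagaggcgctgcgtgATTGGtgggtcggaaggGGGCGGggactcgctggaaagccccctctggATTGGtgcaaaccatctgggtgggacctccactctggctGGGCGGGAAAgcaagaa
TIPIN, chr15:66356676-66356805, minus strand: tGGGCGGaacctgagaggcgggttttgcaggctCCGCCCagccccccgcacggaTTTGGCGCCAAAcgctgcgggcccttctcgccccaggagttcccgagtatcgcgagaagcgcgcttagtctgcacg
ATR, chr3:142578724-142578853, minus strand: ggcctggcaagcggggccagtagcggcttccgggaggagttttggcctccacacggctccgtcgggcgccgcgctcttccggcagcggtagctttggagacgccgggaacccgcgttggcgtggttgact
CLSPN carries 3 CCAAT boxes upstream of an E2F match that spans the canonical start and overlaps a GC box. TIPIN carries 2 E2F matches on opposite strands that overlap in a palindrome. The ATR stretch holds none of these letters, but GC boxes lie farther upstream, centred 172 and 184 bp before the canonical start.

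All 10 genes had a promoter peak in both palbociclib lists, whereas 5 of them, CLSPN, TIMELESS, CHEK2, WEE1 and PKMYT1, had one in both DMSO lists. Among all protein-coding genes, 34.9% had a promoter peak in both palbociclib lists and 2.9% in both DMSO lists. The promoter windows of the 10 genes covered a median of 9935 bp and those of all protein-coding genes a median of 5550 bp, since these genes have many annotated start sites. With the canonical start of each gene alone, 10 of the genes had a promoter peak in both palbociclib lists and 4 in both DMSO lists. Among all genes 32.3% and 2.65% did. The part of window length in the counts was not tested. ATR, ATRIP and TIPIN had a promoter peak in both palbociclib lists and in neither DMSO list, a state found at 28.4% of all genes. The 5 genes with a peak in both DMSO lists kept it in both palbociclib lists, as 2.9% of all genes did. TOPBP1 and CHEK1 had a peak in both palbociclib lists and in 1 DMSO list, as did 3.66% of all genes. When every parental list was shortened to the 816 peaks with the smallest q-values, the length of the shortest list with unplaced contigs included, the genes with a peak in both palbociclib lists numbered 3, CLSPN, TIMELESS and PKMYT1, those in both DMSO lists remained 5 in number, and none had a peak in the palbociclib lists alone. At that length 3.82% of all genes had a promoter peak in both palbociclib lists, 2.67% in both DMSO lists and 0.731% in the palbociclib lists alone.

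None of the 10 genes had a peak at its promoter or within the gene in the RB1 KO or IgG2a lists. A promoter peak was present at 0.00501% of all genes in each RB1 KO list and at 1.95% in the IgG2a list. The nearest IgG2a peak to any of these canonical starts lay 43838 bp from PKMYT1, and the nearest RB1 KO peak lay 8578875 bp from CHEK2. A gene that is not listed did not reach the q-value cutoff of 0.05 used by the authors, and its signal may be above 0. The same cutoff stood for unlike p-values between the groups. The lowest −log10 p-value listed was 5.23 and 5.33 for DMSO and 4.15 and 4.15 for palbociclib, so a DMSO peak had to pass a stricter limit. The lowest fold enrichment listed was 2.5 and 3.17 for DMSO and 2.39 and 2.36 for palbociclib. Where the background was close to its floor, the lowest was 4.38 and 5.44 for DMSO and 3.92 and 3.83 for palbociclib. An unlisted site can therefore exceed the lowest value listed.

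**Figure D1:**
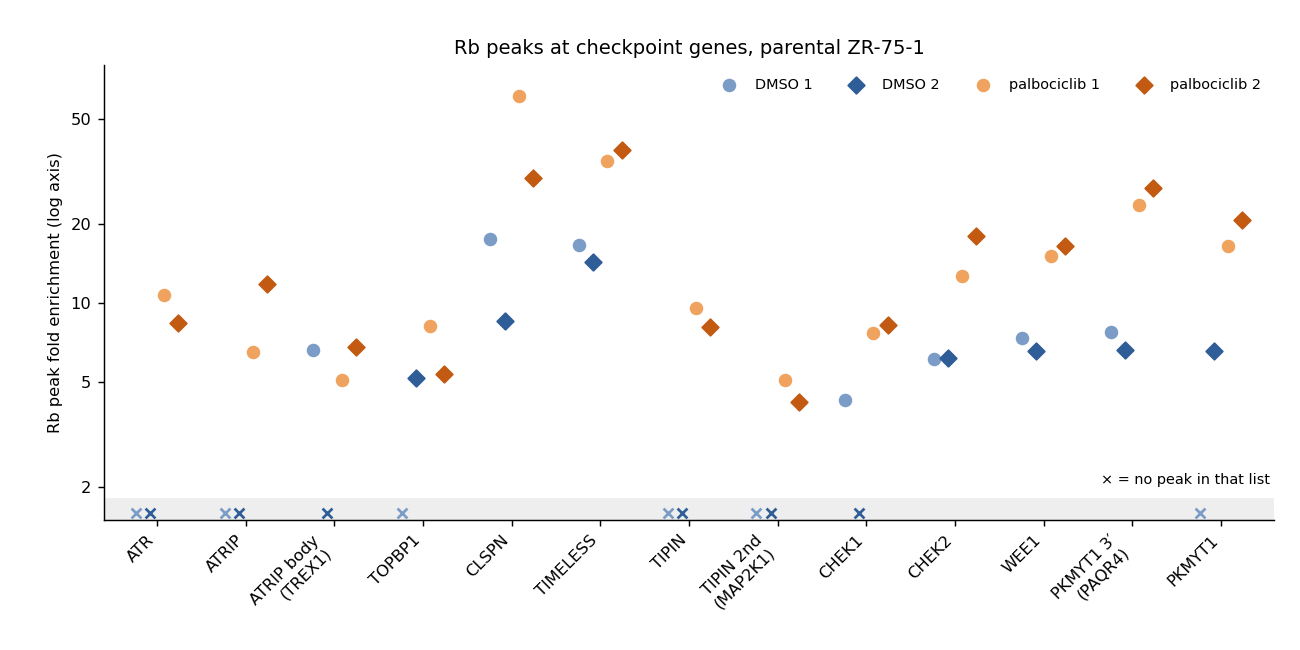
Fold enrichment of Rb peaks (log axis) at 13 sites of the 10 genes in the 4 parental Rb libraries; circles are replicate 1, diamonds replicate 2, and crosses in the grey strip mark a list with no peak. The palbociclib values lie above the DMSO values at every promoter site that has both, from 5.39 against 5.17 at TOPBP1 to 29.9 and 61.1 against 8.51 and 17.5 at CLSPN, and the groups overlap at the TREX1 promoter within ATRIP.

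The peak values below are fold enrichments, the authors' ratio of fragments at the summit to the local background, each with 1 added. The peaks of each library were called against matched IgG, so that background does not come from the Rb library alone. The values are ratios for each library on its own and not amounts of Rb. More Rb at a site, Rb in more of the cells and a shift of the whole library cannot be told apart here. ATR, the kinase at the head of the pathway, lies on chromosome 3 from 142449007 to 142578733 on the minus strand. Its promoter peak had a fold enrichment of 10.7 and 8.41 in the palbociclib libraries, with 20 and 16 fragments at the summit, and no DMSO library had a peak. The summits lay 221 and 137 bp upstream of the canonical TSS. ATRIP, which brings ATR to single-stranded DNA, lies on the same chromosome from 48446710 to 48467645 on the plus strand. Its promoter peak reached 6.52 and 11.8 with palbociclib and was in neither DMSO list. The ATRIP replicates differed by a ratio of 1.8, against a median ratio of 1.21 over 6046 promoter regions with a peak in both palbociclib lists. Their summits also differed, with 1 in a coding exon 187 bp downstream of the TSS and 1 in the sequence 57 bp upstream of it.

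ATRIP also held a peak in its body, between 48465802 and 48466486, at the promoter of TREX1, which encodes an exonuclease that degrades cytosolic DNA. Its fold enrichment was 6.62 in DMSO replicate 1 and 5.08 and 6.83 in the palbociclib replicates, with no peak in DMSO replicate 2. Unlike at the promoters of the 10 genes, the DMSO value fell between the palbociclib values.

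TOPBP1, the scaffold that activates ATR, spans 133598175 to 133662380 on chromosome 3, minus strand. Its peak had a fold enrichment of 5.17 in DMSO replicate 2 and 8.17 and 5.39 with palbociclib, and DMSO replicate 1 had none. In the same libraries 8, 23 and 10 fragments lay at the summit. The DMSO summit was 332 bp upstream of the canonical TSS, and the palbociclib summits were 36 and 227 bp downstream. Of the 7 genes with a DMSO peak at the promoter, TOPBP1 was the only one whose DMSO peak did not lie inside the extents of both palbociclib peaks. In palbociclib replicate 2 the region was called as 2 separate peaks, so the values compared at TOPBP1 stem from different positions within 1 promoter.

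CLSPN, the mediator between ATR and CHEK1, carried the highest mean palbociclib value of the 10 genes. It lies on chromosome 1 from 35720218 to 35769978 on the minus strand, and its peak region extended from 35769182 to 35770381. The fold enrichment was 17.5 and 8.51 with DMSO against 61.1 and 29.9 with palbociclib, so that both palbociclib values exceeded both DMSO values. The replicates differed by a ratio of 2.05 with palbociclib, a ratio over 2 that occurred at 2.15% of promoter regions, and by 2.06 with DMSO. The fragment counts behind them were closer together, at 51 and 34 with DMSO against 164 and 169 with palbociclib. The local background differed instead, being 1.97 and 3.11 fragments with DMSO against 1.70 and 4.69 with palbociclib. Higher background went with the libraries whose summits lay farther inside the gene, 185 and 248 bp from the TSS against 92 and 123 bp. The part of the background in the replicate difference was not tested.

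TIMELESS, which together with TIPIN protects stalled forks, lies on chromosome 12 from 56416363 to 56449426 on the minus strand. Its fold enrichment was 16.6 and 14.3 with DMSO against 34.6 and 38.2 with palbociclib, from 34, 21, 84 and 77 fragments. All 4 summits lay in an intron of the canonical transcript, between 123 and 177 bp downstream of the canonical TSS. The E2F match shown for TIMELESS was centred 208 bp downstream of the TSS, within 82 and 32 bp of the palbociclib summits. TIPIN, on chromosome 15 from 66336191 to 66386746 on the minus strand, had no DMSO peak. Its palbociclib peak at the canonical start reached 9.53 and 8.11, from 27 and 24 fragments, with summits 81 and 51 bp upstream of the TSS. The overlapping E2F matches of TIPIN lay within 22 bp of both summits. A weaker palbociclib peak, of 5.1 and 4.22 from 12 fragments each, lay at an upstream TIPIN start between 66386708 and 66387257 that is shared with MAP2K1, the gene of the kinase MEK1.

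CHEK1, the main effector kinase of ATR, lies on chromosome 11 from 125625163 to 125676255 on the plus strand. Its peak had a fold enrichment of 4.28 in DMSO replicate 1, none in DMSO replicate 2, and 7.68 and 8.24 with palbociclib. The 3 summits were 686, 678 and 652 bp downstream of the canonical TSS, in untranslated exon sequence. They lay 89 to 123 bp from the nearest annotated CHEK1 start. The E2F match shown for CHEK1 was centred 800 bp downstream of the canonical TSS, 122 and 148 bp from the palbociclib summits. CHEK2, on chromosome 22 from 28687743 to 28742422 on the minus strand, had a fold enrichment of 6.15 and 6.2 with DMSO against 12.6 and 17.9 with palbociclib. Its peak also covered the promoter of HSCB, which encodes a chaperone for iron-sulphur cluster assembly, so the signal belongs to either gene or both. The CHEK2 palbociclib summits lay 237 bp apart, against a median of 55 bp over the 6046 promoter regions.

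WEE1, the nuclear kinase that inhibits CDK1 and CDK2, lies on chromosome 11 from 9573670 to 9593457 on the plus strand. It had a fold enrichment of 7.35 and 6.55 with DMSO against 15.1 and 16.4 with palbociclib, from 22, 17, 41 and 49 fragments. The groups did not overlap, and the palbociclib replicates differed by a ratio of 1.09. PKMYT1, the membrane-bound kinase of CDK1, lies on chromosome 16 from 2968024 to 2980479 on the minus strand and had 2 separate promoter sites. At its canonical start the fold enrichment was 6.59 in DMSO replicate 2 and 16.4 and 20.7 with palbociclib, with no peak in DMSO replicate 1. At the other end of the gene, between 2968539 and 2969984, annotated PKMYT1 starts lie at the promoter of PAQR4, a gene of the progestin and adipoQ receptor family. There the values were 7.77 and 6.61 with DMSO against 23.5 and 27.2 with palbociclib, from 26, 19, 75 and 91 fragments. PKMYT1 counted as having a peak in both DMSO lists through this site, and with canonical starts alone that number of genes was 4.

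**Figure D2:**
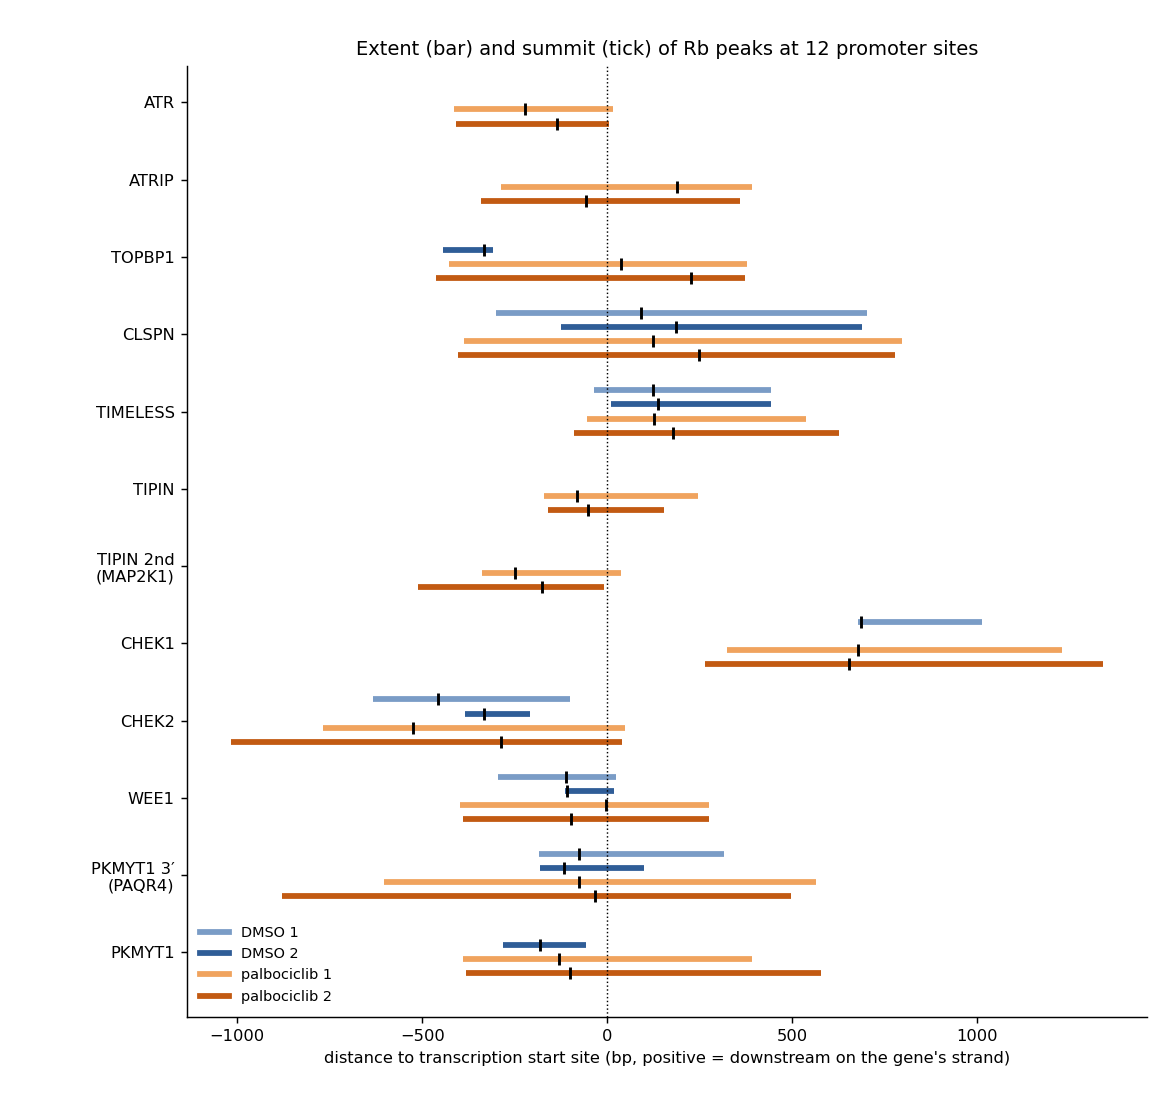
Extent (bar) and summit (tick) of each parental Rb peak at 12 promoter sites of the 10 genes, in bp from the canonical start, or from the nearest annotated start for the TIPIN site at MAP2K1 and the PKMYT1 site at PAQR4; a bar at TOPBP1 in palbociclib replicate 2 joins 2 peaks. DMSO bars lie inside the palbociclib bars except at TOPBP1, and the CHEK1 summits lie 652 to 686 bp downstream.

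With palbociclib the sites ranked in a few steps. CLSPN had a mean fold enrichment of 45.5 ± 22.1 (SD, n = 2) and TIMELESS 36.4 ± 2.51 (SD, n = 2), and their replicate ranges overlapped. PKMYT1 at PAQR4 followed with 25.3 ± 2.57 (SD, n = 2), below both TIMELESS values and above both values of its canonical start. PKMYT1 at its canonical start had 18.5 ± 3.07 (SD, n = 2), WEE1 15.8 ± 0.913 (SD, n = 2) and CHEK2 15.3 ± 3.7 (SD, n = 2), and these neighbours were not separated by more than their spread. ATR had 9.54 ± 1.59 (SD, n = 2), ATRIP 9.14 ± 3.71 (SD, n = 2), TIPIN 8.82 ± 1.01 (SD, n = 2), CHEK1 7.96 ± 0.396 (SD, n = 2) and TOPBP1 6.78 ± 1.97 (SD, n = 2). Each of these 5 overlapped its neighbours in the order, all lay below the CHEK2 values, and the TIPIN site at MAP2K1 was lowest with 4.66 ± 0.622 (SD, n = 2).

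Set among the 6046 promoter regions with a peak in both palbociclib lists, ordered by the geometric mean of both fold enrichments, CLSPN ranked 59 and TIMELESS 102. PKMYT1 ranked 286 at PAQR4 and 647 at its canonical start, WEE1 915 and CHEK2 1014. ATR ranked 2364, TIPIN 2646, ATRIP 2662, CHEK1 3050 and TOPBP1 3905, around the median of 7.99 over all these regions. Regions with a peak in both DMSO lists had a higher median palbociclib value, 25.7 over 450 regions, than those with none, 7.18 over 5004 regions. Within the first of these classes CLSPN was above 87.1% and TIMELESS above 78.9% of regions, whereas CHEK2 was above 8.67% and WEE1 above 11.8%. Among regions with no DMSO peak, ATR was above 71.9%, TIPIN above 66.6% and ATRIP above 66.3%, whereas the TIPIN site at MAP2K1, which ranked 5483 of the 6046, was above 11.2%. TOPBP1 and CHEK1 were low for regions with a peak in 1 DMSO list, above 3.04% and 6.59% of 592 such regions with a median of 15.0, and PKMYT1 at its canonical start, in the same class, was above 69.4%.

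**Figure D3:**
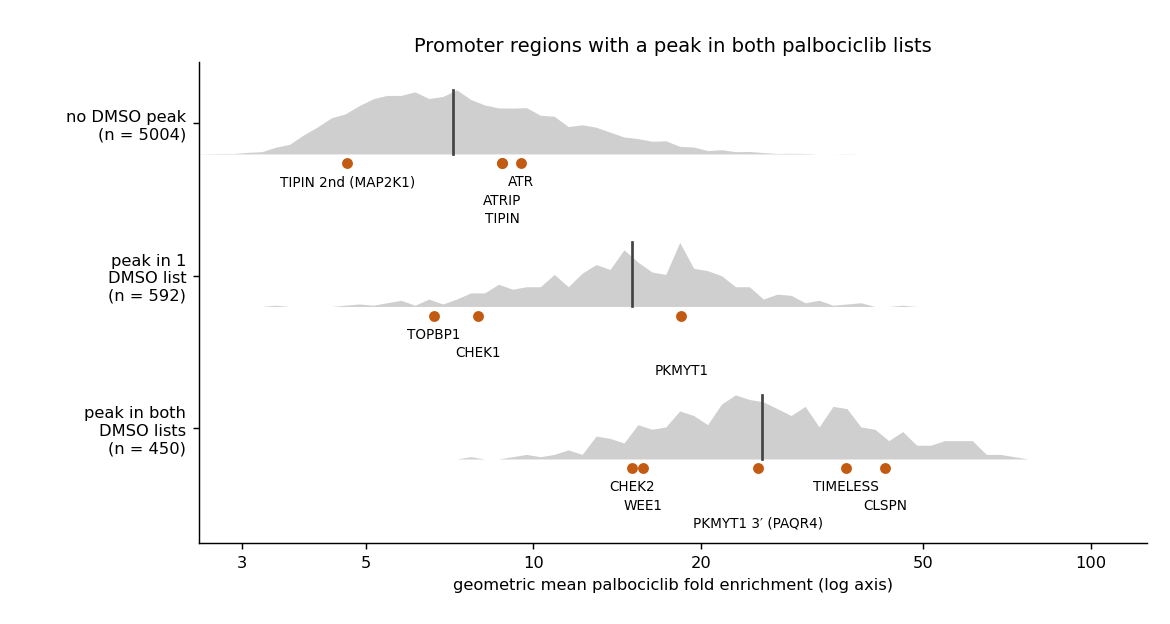
Distribution of the geometric mean palbociclib fold enrichment (log axis) of 6046 promoter regions, split by presence in the DMSO lists, each scaled to its own highest bin; dark lines are class medians (7.18, 15.0 and 25.7) and orange points the sites of the 10 genes. CLSPN and TIMELESS lie to the right of the median of their class and CHEK2 and WEE1 to its left.

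To ask whether Rb signal differed between treatments where both groups had peaks, log2 fold enrichment was compared by limma at the 476 regions called in all 4 parental lists. All 5 genes present there were higher with palbociclib, in a background where 99.8% of the regions were higher at an adjusted p under 0.05 and the median log2 difference was 1.90. CLSPN rose by 1.81 ± 0.36 (SE) on the log2 scale, adjusted p = 0.00025 by limma with Benjamini-Hochberg adjustment, and PKMYT1 at PAQR4 rose by 1.82 ± 0.23 (SE), adjusted p = 4.93e-06 by limma. These are 3.5-fold and 3.53-fold increases, close to the median region. TIMELESS rose by 1.24 ± 0.23 (SE), CHEK2 by 1.28 ± 0.24 (SE) and WEE1 by 1.19 ± 0.23 (SE), with limma adjusted p of 0.000121, 0.000156 and 0.000167. The differences at TIMELESS, CHEK2 and WEE1 exceeded those of 4.62%, 6.3% and 3.57% of regions, so they stood near the low end of the distribution. Both palbociclib values were above both DMSO values at each of these 5 sites, and an exact permutation test of 2 against 2 libraries, two-sided, gave its smallest possible p of 0.333 for each.

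The rise was shared by nearly all regions, and relative to it these sites lay near or below the median. When each library was centred on its median over the 476 regions, the differences became -0.12 at CLSPN and -0.11 at PKMYT1 at PAQR4. They became -0.68 at TIMELESS, -0.64 at CHEK2 and -0.74 at WEE1. None of these differences had an adjusted p under 0.05 by limma. With this centring 0 regions were higher and 2 lower by limma, and at an unadjusted p under 0.05 29 were higher and 51 lower. CLSPN rested in part on palbociclib replicate 1, without which its difference was 1.29 with a limma adjusted p of 0.0637. Only regions strong enough to be called with DMSO could enter the comparison, and ATR, ATRIP and TIPIN were outside it.

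Sites called in 1 DMSO list were compared in a fit without the other DMSO library, which takes the spread of the lone DMSO library to equal that of the palbociclib group. PKMYT1 at its canonical start was higher with palbociclib by 1.48 ± 0.24 (SE) on the log2 scale, limma adjusted p = 0.000621, and CHEK1 by 0.89 ± 0.21 (SE), limma adjusted p = 0.00798. TOPBP1 differed by 0.36 ± 0.29 (SE) with a limma adjusted p of 0.258. At the TREX1 promoter within ATRIP the difference was -0.17 ± 0.26 (SE), limma adjusted p = 0.547. In these fits 97.2% of 716 regions, for PKMYT1 and TOPBP1, and 96.3% of 884 regions, for CHEK1 and ATRIP, were higher with palbociclib. Each of these fits keeps the DMSO library that had a peak at the site and drops the one that had none, which favours a small difference. At TOPBP1 the summits compared were also those of different positions.

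The peaks also differed in width. The width of the CLSPN peak was 1003 and 812 bp with DMSO against 1183 and 1181 bp with palbociclib, and that of TIMELESS was 480 and 434 bp with DMSO against 594 and 716 bp with palbociclib. CLSPN was thus already broad with DMSO, where the median peak was 264 and 233 bp wide. WEE1 widened from 320 and 133 bp to 674 and 664 bp, and PKMYT1 at PAQR4 from 500 and 281 bp to 1170 and 1378 bp. CHEK2 measured 531 and 175 bp with DMSO against 819 and 1057 bp with palbociclib. In the limma comparison of log2 width, 93.7% of the 476 regions were wider with palbociclib, with a median log2 difference of 1.46. The difference was 0.39 at CLSPN, limma adjusted p = 0.0989, and 0.51 at TIMELESS, limma adjusted p = 0.0478, larger than at 0.84% and 2.73% of regions. It was 1.61 at CHEK2, 1.70 at WEE1 and 1.76 at PKMYT1 at PAQR4, with limma adjusted p of 0.0449, 0.0198 and 0.00688. These sizes rested on the DMSO libraries, being 2.41 at CHEK2, 2.33 at WEE1 and 2.18 at PKMYT1 without DMSO replicate 1 and 0.81, 1.06 and 1.34 without DMSO replicate 2. After centring, CLSPN and TIMELESS were relatively narrower, at -1.18 and -1.06 with limma adjusted p of 0.0447 and 0.045, among 13 regions relatively wider and 21 relatively narrower. No width call at these genes held without palbociclib replicate 1 or without palbociclib replicate 2, where 183 and 218 regions were wider and the limma adjusted p of TIMELESS, CHEK2, WEE1 and PKMYT1 was 0.0553 to 0.273. TIMELESS also lost its width call without DMSO replicate 1 or DMSO replicate 2, with limma adjusted p of 0.0506 and 0.099, and with a trended and robust variance, limma adjusted p = 0.0528, and CLSPN passed without DMSO replicate 1, at 0.54 with a limma adjusted p of 0.0196. The extents of both DMSO peaks lay inside both palbociclib extents at all 5 of these sites, as at 97.7% of the 476 regions.

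**Figure D4:**
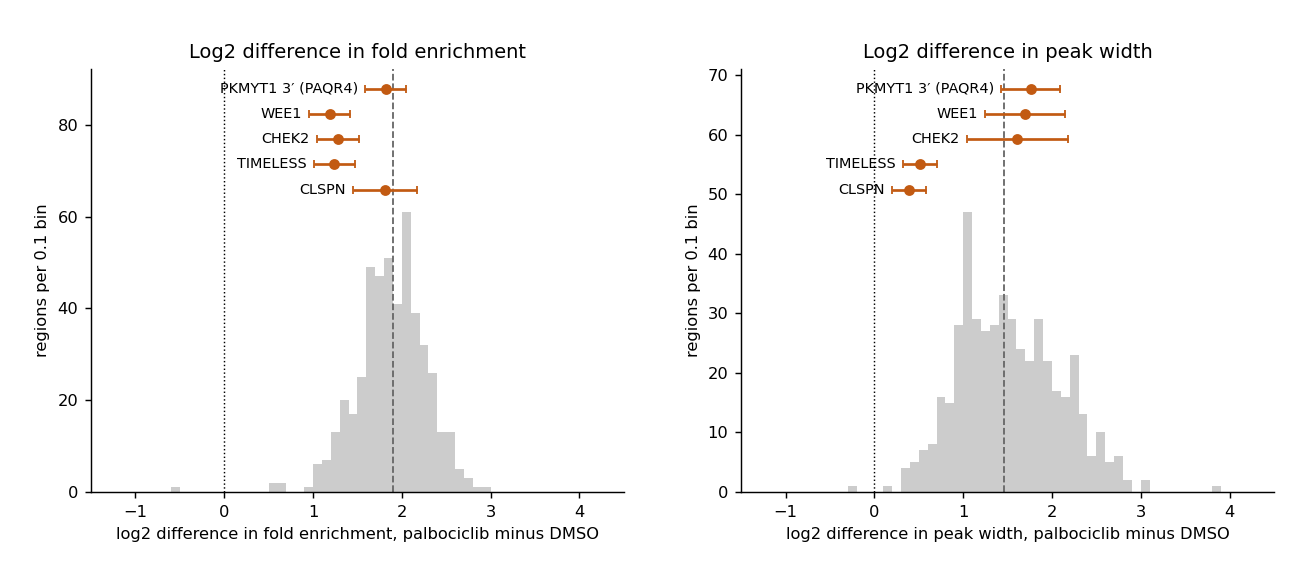
Log2 difference, palbociclib minus DMSO, in fold enrichment (left) and peak width (right) over 476 regions called in all 4 parental lists (grey bars, number of regions per bin); dashed lines are the medians (1.90 and 1.46), and orange points the 5 sites of the checkpoint genes with their standard errors. TIMELESS, CHEK2 and WEE1 lie left of the median in fold enrichment, and CLSPN and TIMELESS left of it in width.

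The sequence around the palbociclib summits was searched for short motifs at the 12 promoter sites, within 100 bp of the summit of the higher replicate. The E2F forms were present at 4 sites, TOPBP1, TIMELESS, TIPIN and PKMYT1 at its canonical start. They were present at 5.92% of the 6046 promoter regions in windows of the same length. By class the share was 4.9% with no DMSO peak, 8.61% with a peak in 1 DMSO list and 13.8% with a peak in both. The sites depended on the replicate, since around the summit of the other replicate the forms were present at TIMELESS, TIPIN and PKMYT1 at PAQR4, and thus at TIMELESS and TIPIN with either summit. Within 500 bp of the summit they were present at 7 sites of 6 genes, adding CLSPN, CHEK1 and PKMYT1 at PAQR4, and at 18.2% of all regions. In the same classes the share with E2F forms was 15.7%, 25.3% and 36%. ATR, ATRIP, CHEK2 and WEE1 held none in either window, which says only that these letters were not found there. The CCAAT box was present at 4 sites, or at 2 with the summit of the other replicate, and at 26% of regions, and the GC box at 10 sites and at 70.4% of regions. The cAMP response element TGACGTCA and the ETS site CCGGAAGT were found at 0 sites, and at 1.17% and 3.24% of regions. The GC content of the 12 windows was 61.2% to 75.1%, and the median over all regions was 70.6%.

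A further 27 genes of the pathway were examined, chosen with earlier results of these data known. Of these, 23 had a promoter peak in both palbociclib lists and 12 in the palbociclib lists alone. Among all protein-coding genes, 34.9% and 28.4% did. A peak in both DMSO lists was present at 8 of the 27, against 2.9% of all genes. The 8 were the single-stranded DNA-binding subunits RPA1, RPA2 and RPA3, the clamp subunit RAD1, the replisome protein WDHD1, the kinase chaperone TTI1, the phosphatase CDC25A that reverses the action of WEE1, and PPM1D, the phosphatase that ends the signal. All 8 were higher with palbociclib, by 1.32 to 2.09 on the log2 scale, with limma adjusted p of at most 0.000135. Their median was 1.77, against 1.28 over the 5 checkpoint sites and 1.90 over the 476 regions, of which 99.8% were higher. RPA3, at 39.9 and 32.7, PPM1D, at 37.9 and 33.4, and ATM, at 25.4 and 28.6, had the highest palbociclib values of the 27 genes. RPA3 and PPM1D were thus in the range of TIMELESS and CLSPN. The ATM site is shared with NPAT and the RPA3 site with UMAD1. The RPA3 summits lay 78030 and 77979 bp downstream of the canonical RPA3 start, near another annotated start. The sites at RPA1, RAD1, WDHD1 and TTI1 also covered the promoter of a further gene. The clamp subunit HUS1, the fork remodeller SMARCAL1 and the chaperone TTI2 had no promoter peak in either palbociclib list. The IgG2a list held a promoter peak at RAD50 and CCNB1, whose palbociclib values of 4.93 to 5.87 therefore have a background call at the same promoters, and the RB1 KO lists held none of the 27.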

How the data were processed

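The authors removed adapters with BBDuk, used Bowtie2 2.3.4.1 for alignment to hg38, discarded reads in blacklisted regions and mitochondrial DNA while retaining duplicates, and ran MACS2 2.2.7.1 on each library against matched IgG at q 0.05. The study names a yeast genome among its references without its role, and spike-in scaling of these values is not given in the sources used here, nor is the control of the IgG2a list. The deposited lists give a score, the fold enrichment as a ratio, −log10 p-value, −log10 q-value and summit of each peak.

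The 10 genes, the 27 further genes and the tests were chosen with earlier results of these data known. All 10 genes are named, and of the 27 those with a peak in both DMSO lists, the 3 with the highest palbociclib mean and those without a palbociclib peak. Peaks were joined by 1 bp overlap and annotated with GENCODE 44. Where a list had several peaks in a region, widths were summed and the peak with the highest enrichment gave the other values. Fragments at each summit were recovered from fold enrichment and p (largest misfit 0.0015 in −log10 p). As given they are not adjusted for depth and carry the spread between libraries as well as counting error. limma 3.58.1 in R 4.3.3 compared 2 with 2 libraries, without blocking, after a check on simulated data. Per the study, replicates were individual biological replicates of 1 experiment. Same-numbered libraries did not deviate together (correlation 0.0748 and -0.049), so numbers were not taken as pairs. The promoter sequence of 1 gene and a motif in it are not reported here.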

Additional observations from a re-analysis of the deposited data

How the results depend on the processing

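The counts of checkpoint genes kept within 1.5 times of their values under a −log10 q of at least 5, a fold enrichment of at least 5, a window of 1000 bp upstream to 200 bp downstream, canonical starts, peaks with at least 50% of their length inside the promoter, and omission of each parental library. Over these settings 4 to 6 genes were in both DMSO lists and kept, 9 to 10 in both palbociclib lists and 3 to 4 in the palbociclib lists alone. Of all protein-coding genes, 1.61% to 5.22% were in both DMSO lists and 1.61% to 5.21% were kept. The shares were 26.8% to 39.6% in both palbociclib lists and 22.3% to 33.1% in the palbociclib lists alone. Without 1 library the counts of checkpoint genes were 5 to 6, 10 and 3 to 4. With lists of equal length, 3 genes were in both palbociclib lists, 0 in them alone and 3 kept, against 3.82%, 0.731% and 2.16% of all genes.

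The count of regions with higher fold enrichment was 271 of 272 at a −log10 q of at least 5 and 40 of 41 with 50% overlap of both widths, where fewer regions enter, 0 after centring, and 465 to 851 without 1 library, the highest being 851 of 884 without DMSO replicate 2, since more regions then enter. Regions that were lower numbered 2 after centring, 0 to 2 without 1 library and 1 with fragments over the background floor, an alternative chosen after seeing the data. Wider regions numbered 251 and 39 under the first pair of settings, 13 after centring and 183 to 813 without 1 library (687 without DMSO replicate 1, 813 without DMSO replicate 2, 183 and 218 without palbociclib replicates 1 and 2). Narrower regions numbered 1 with 50% overlap and 21 after centring. Centring takes the shared shift from every region, so sites below the median change sign. This was so for the fold enrichment difference at CLSPN (-0.12), TIMELESS (-0.68), CHEK2 (-0.64), WEE1 (-0.74) and PKMYT1 at PAQR4 (-0.11). It was also so for the width difference at CLSPN (-1.18) and TIMELESS (-1.06).

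With the replicate number as a block, the count of regions with higher fold enrichment was 475 and of wider regions 441, and among the checkpoint genes TIMELESS lost its width call (0.51, limma adjusted p = 0.0976). A weak DMSO peak rests on few fragments, 8 at TOPBP1 and 11 at CHEK1, so presence or absence in a DMSO list is uncertain at such depth.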
